A study of Mus musculus with 2 samples.

Results

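The box C/D small nucleolar RNAs (snoRNAs) were taken as every gene whose symbol starts with Snord, leaving out Snord118 (U8) and Snord13 (U13), which gave 104 of 55414 listed genes. Their unique molecular identifiers (UMIs, tags that count 1 captured molecule each) were described in 2 single-nucleus libraries of C2C12, an established mouse myoblast line. In 1 library, fixed nuclei were incubated with yeast poly(A) polymerase, which adds a tail of adenines to RNA 3′ ends, so that oligo(dT) can also prime RNAs without a tail of their own. The other library, here called standard, came from fixed C2C12 nuclei that were given neither the enzyme nor its warm incubation. By the paper's methods, standard nuclei also went without the further wash and pelleting that followed the enzyme step. Enzyme, incubation and further wash thus cannot be told apart. Each group held 1 library, so there were no replicates and no test was made, and all intervals below are exact 95% intervals for counting error only.

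A box C/D snoRNA is a short RNA with a box C near its 5′ end and a box D near its 3′ end, held together by a terminal stem and bound by fibrillarin, Nop56, Nop58 and Snu13. Most guide 2′-O-methylation: bases upstream of box D pair with rRNA or with the U6 spliceosomal RNA, and fibrillarin methylates the paired nucleotide. In vertebrates most are cut out of introns of host genes, many of which encode ribosomal proteins, and mature snoRNAs carry no poly(A) tail.

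The sequences of the 7 members with the most UMIs in in situ polyadenylated nuclei are shown because they carry most of the signal. Snord104 follows as the only member counted in both deposited matrices, Snord15a and Snord3b-ps1 as the members with the highest and the lowest ratio of low-UMI barcodes to nuclei, and Snord42b beside its paralog Snord42a. Sequences are those of the GRCm39 genome on the strand of each gene, 5′ to 3′, and capitals mark TGATGA (box C) in the first 15 bases and CTGA (box D) in the last 15 bases.
Snord17, chr2:144107899-144108136, minus strand: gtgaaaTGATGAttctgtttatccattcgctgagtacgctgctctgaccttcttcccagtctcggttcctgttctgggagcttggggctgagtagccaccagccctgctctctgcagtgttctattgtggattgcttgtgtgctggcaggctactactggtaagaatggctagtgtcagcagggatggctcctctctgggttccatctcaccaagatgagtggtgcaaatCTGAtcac
Snord72, chr15:5147886-5147966, plus strand: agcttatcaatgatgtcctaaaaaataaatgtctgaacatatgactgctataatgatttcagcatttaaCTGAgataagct
Snord43, chr15:79967048-79967155, minus strand: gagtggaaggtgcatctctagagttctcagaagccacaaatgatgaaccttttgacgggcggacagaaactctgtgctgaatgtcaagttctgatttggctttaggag
Snord49b, chr11:62493905-62493976, plus strand: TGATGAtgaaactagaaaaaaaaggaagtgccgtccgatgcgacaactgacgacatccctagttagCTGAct
Snord35a, chr7:44775770-44775859, minus strand: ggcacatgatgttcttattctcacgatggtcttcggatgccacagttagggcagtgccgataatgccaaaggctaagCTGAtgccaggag
Snord49a, chr11:62494276-62494347, plus strand: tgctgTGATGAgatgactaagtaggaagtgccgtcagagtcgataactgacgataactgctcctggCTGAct
Snord42a, chr11:78072125-78072189, minus strand: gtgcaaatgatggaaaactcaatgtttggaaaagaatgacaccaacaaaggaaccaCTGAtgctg
Snord104, chr11:106391819-106391888, plus strand: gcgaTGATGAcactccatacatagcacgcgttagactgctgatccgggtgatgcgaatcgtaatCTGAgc
Snord15a, chr7:99131992-99132139, minus strand: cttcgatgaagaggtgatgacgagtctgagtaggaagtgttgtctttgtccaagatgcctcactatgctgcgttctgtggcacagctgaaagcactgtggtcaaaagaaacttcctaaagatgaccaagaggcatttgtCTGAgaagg
Snord3b-ps1, chr19:4128297-4128512, minus strand: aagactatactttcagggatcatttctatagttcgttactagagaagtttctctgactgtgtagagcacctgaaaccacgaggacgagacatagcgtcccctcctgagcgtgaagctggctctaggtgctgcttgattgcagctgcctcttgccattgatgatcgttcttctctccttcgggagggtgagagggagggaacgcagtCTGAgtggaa
Snord42b, chr11:78073882-78073950, minus strand: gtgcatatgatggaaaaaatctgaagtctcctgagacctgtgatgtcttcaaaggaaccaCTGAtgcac

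Searched with these exact letters on the gene's own strand, 63 of the 104 genes held box C, 97 held box D and 61 held both. Of 104 windows of the same length just downstream, 1 held the box C letters, 9 held the box D letters and 0 held both. Snord35a, Snord42a, Snord42b and Snord72 hold the shorter letters tgatg at their 5′ ends and so were not counted for box C. The annotated Snord43 gene, of class miRNA in GENCODE M39, is longer than the snoRNA. It holds TGATGA first at base 41 and its last CTGA at base 91 of 108. A perfect complement to the annotated 18S rRNA of at least 9 bases, ending 0 to 3 bases before a CTGA, was found in 22 genes and in 0 downstream windows. Snord42a and Snord42b, both guides of 18S methylation, shared the 11-base complement caaaggaacca, and Snord59a, also an 18S guide, held the 13-base complement gactttcgttctt.

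The question was which of these untailed RNAs appeared after in situ polyadenylation, and in which droplets. A nucleus here is a barcode with more than 750 kallisto UMIs and under 5% mitochondrial UMIs. There were 1335 in situ polyadenylated nuclei with 1974403 UMIs and 1123 standard nuclei with 1382984 UMIs. Barcodes with 1 to 100 UMIs, called low-UMI barcodes, numbered 229964 and 226358. No barcode was shared by the nuclei of both libraries, whereas 50944 of all listed barcodes were. All 6 myoblast markers (Myod1, Myf5, Des, Cdh15, Chrna1, Cdon) were present, with 475 UMIs in all in in situ polyadenylated and 853 in standard nuclei. Of 6 leukocyte, endothelial and epithelial markers, summing to 13 and 41 UMIs, Cdh5 and Epcam were at 0 in both libraries and Pecam1 held 10 and 35 UMIs.

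Box C/D snoRNAs took 1659 UMIs of in situ polyadenylated nuclei, a share of 0.0840% (0.0800 to 0.0882), and 11 UMIs of standard nuclei, a share of 0.000795% (0.000397 to 0.00142). The share was 106-fold higher, a log2 ratio of 6.72 (5.88 to 7.73). It was higher for the collection as a whole while most genes were lower: the 8430 genes that reached 20 UMIs, summed over both libraries, had a median log2 ratio of -1.41, so the total stood 8.13 log2 units above the median gene. Genes of the rRNA class or with rRNA-like sequence took 71.9% of UMIs in in situ polyadenylated and 30.01% in standard nuclei, and the log2 ratio was 8.04 without them in the denominator, a set completed after seeing the data. Without the rRNA class and genes with an rRNA 31-mer alone it was 7.18. The enzyme mix for these nuclei held the RNase inhibitor SUPERase, which the paper found unable to protect longer transcripts during tailing of tissue sections. Whether longer RNAs were lost in these nuclei was not tested, so such loss cannot be told apart from tailing. At least 1 UMI was found for 44 members in in situ polyadenylated and for 7 members in standard nuclei. The nuclei sets differed in depth, with 1974403 and 1382984 UMIs, and no share over all genes is set beside these counts.

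Among those 8430 genes, 1.46% were past 2-fold higher in in situ polyadenylated nuclei. All 18 members that reached 20 UMIs were among them, but they reached the minimum through the in situ polyadenylated library, so the count of 18 of 18 had to come out high. Of 30 members with at least 10 UMIs in in situ polyadenylated nuclei, 24 were at 0 in standard nuclei, against 1.03% of all 7112 genes with as many UMIs there. These 30 members were also chosen by the in situ polyadenylated library, so the count of 24 describes them only. Zeros took a floor of 3 UMIs, so folds written as at least are bounds at that floor. The 30 members had a median of 29.3 UMIs per 100 nt of gene, in a range from 6.02 to 240.3 UMIs per 100 nt.

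**Figure D1:**
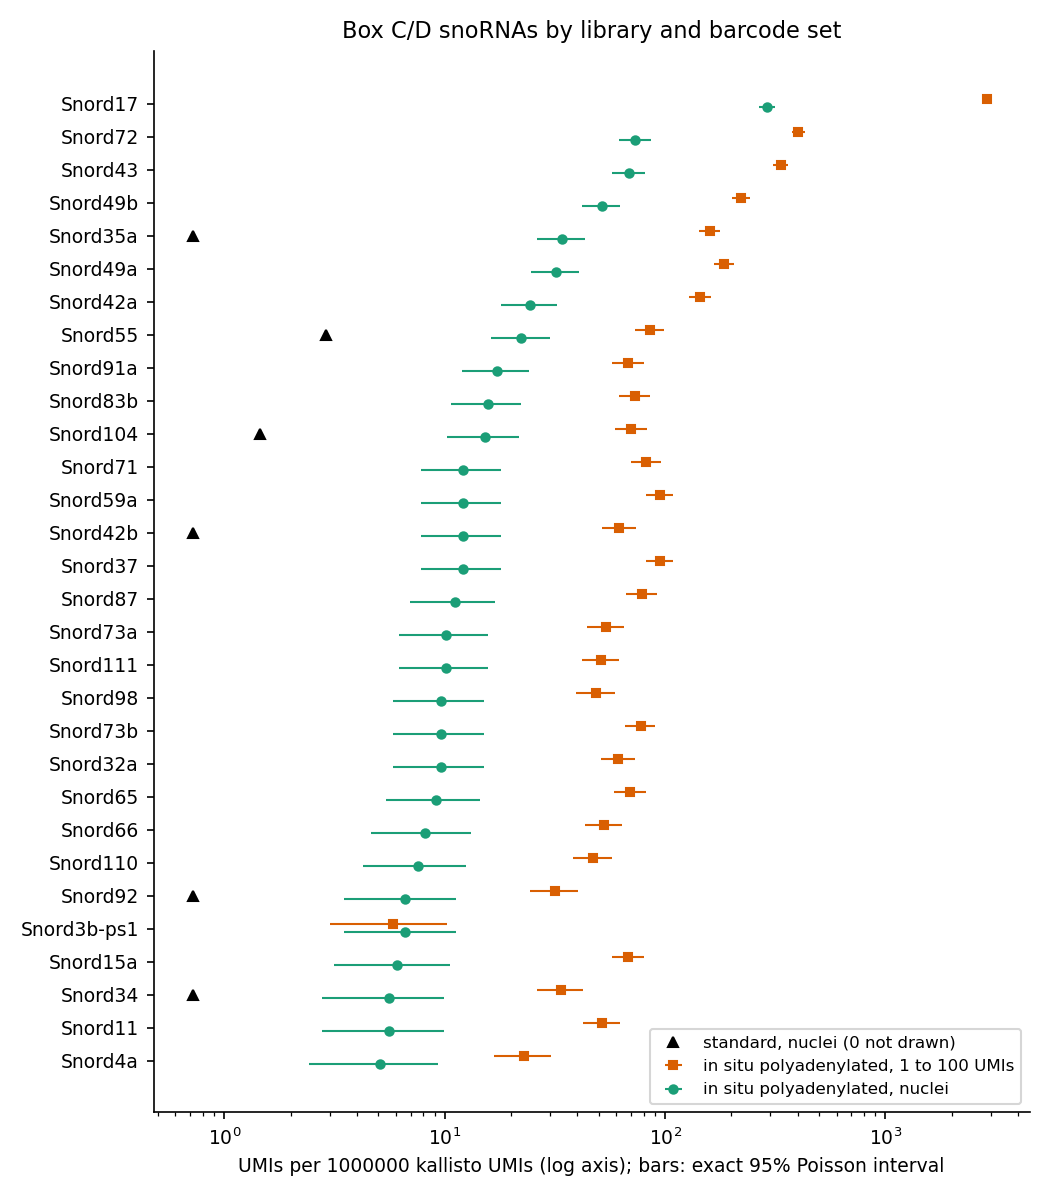
UMIs per 1000000 kallisto UMIs on a log axis for the 30 box C/D snoRNAs with at least 10 UMIs in in situ polyadenylated nuclei. Circles show in situ polyadenylated nuclei, squares in situ polyadenylated low-UMI barcodes and triangles standard nuclei (members at 0 are not drawn); bars are exact 95% Poisson intervals. Squares lie to the right of circles for every member but Snord3b-ps1, and 6 members have a triangle.

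Among members given a role, guides of 28S rRNA methylation led. Among 30 genes assigned to 28S, 17 were found in in situ polyadenylated nuclei, with 1189 of the 1659 UMIs. Snord17, a 28S guide in an intron of Snx5 and the longest member at 238 nt, held 572 UMIs in in situ polyadenylated nuclei and 0 in standard nuclei, so its share was at least 134-fold higher. It took 34.5% of all member UMIs and led per length too, with 240.3 UMIs per 100 nt.

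Snord72, a 28S guide within Rpl37, followed with 144 UMIs against 0, at least 33.6-fold higher and 177.8 UMIs per 100 nt. The paralogs Snord49b and Snord49a, 28S guides within the noncoding host 2410006H16Rik, held 102 and 63 UMIs and were both at 0 in standard nuclei. Snord35a, a 28S guide within Rpl13a, held 67 UMIs against 1, a 46.9-fold higher share with a log2 interval from 3.03 to 10.88. In each of these genes the in situ polyadenylated library was the one with the signal, and the 1 standard UMI leaves the upper end of the Snord35a ratio wide.

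Snord55, a 28S guide, differed from the others in its standard counts. It held 44 UMIs in in situ polyadenylated and 4 in standard nuclei, a log2 ratio of 2.95 (1.49 to 4.88). Over all barcodes Snord55 gave 56 of the 107 standard member UMIs, and its log2 ratio of 3.03 (2.61 to 3.46) lay below that of all members, 8.03 (7.75 to 8.32). In the M39 annotation all 49 of the 31-base words (31-mers) of Snord55 occur in no other gene.

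Assigned guides of 18S rRNA were fewer. Among 16 genes assigned to 18S alone, 7 were found, with 274 UMIs. The roles are incomplete: 31 members were given none, of which 15 were found, with 143 UMIs. Of 86 members with another role or none, 8 held an 18S complement as defined above, so 18S guides may be undercounted. Snord43, within Rpl3, held 135 UMIs against 0, or 125.0 per 100 nt of an annotated gene longer than the snoRNA, and was at least 31.5-fold higher. Snord42a held 48 UMIs against 0, and its paralog Snord42b, in the same host Rpl23a, held 24 against 1. Snord59a within Atp5f1b, Snord98 within Ccar1 and Snord110 within Nop56 held 24, 19 and 15 UMIs, all against 0. Snord32a, which guides both 18S and 28S methylation, held 19 against 0.

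Other rRNA guides had low counts. Snord71, a guide of 5.8S rRNA within Ap1g1, held 24 UMIs against 0, and the 28S guides Snord91a, Snord37 and Snord87 held 34, 24 and 22 against 0. Of 4 guides of U6, 3 were found, with 10 UMIs in all. The 28S guides Snord111, Snord73a and Snord73b held 20, 20 and 19 against 0. Snord83b, Snord65, Snord66, Snord11 and Snord4a, given no role here, held 31, 18, 16, 11 and 10 against 0. Snord92, Snord34 and Snord70 held 13, 11 and 4, each against 1.

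Of the 19 imprinted-region members, 17 Snord116 copies with Snord64 and Snord107, 0 had a UMI in any barcode of either library. In all 58 members, 55.8% of the list, were at 0 in every barcode of both libraries, against 53.6% of all listed genes. That share is near the background, so the count alone does not set the list apart.

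Detection went with the sequence that a gene has to itself. kallisto assigns reads by 31-mers, and a gene was said to have a private 31-mer if no other listed gene held it in a transcript of GENCODE M39, a later release than the M28 of the authors. Of 34 members with a private 31-mer, 31 had UMIs in some barcode, and the other 3 were Snord116 copies. Of 70 members without one, 15 had UMIs, among them Snord72, Snord49b, Snord35a and Snord49a. Those 15 all overlap an exon of another listed gene in M39. Whether the shared 31-mers were already in the authors' index was not tested. Reads of a snoRNA without private sequence may go to another gene or the reverse, so a 0 does not show that the RNA is absent, and the counts of those 15 members carry an uncertainty that no interval covers. Private sequence was judged against annotated transcripts only. Whether members with private 31-mers also took reads of host RNA that still held the intron was not tested.

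**Figure D2:**
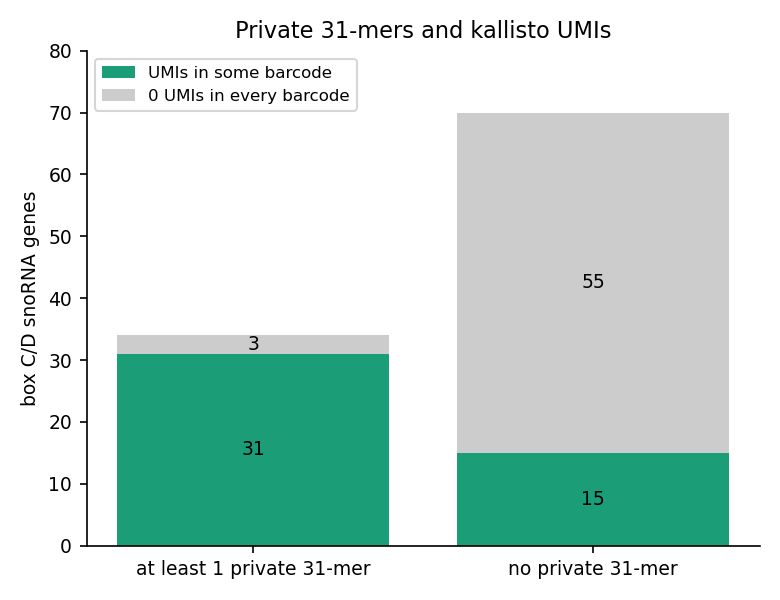
Number of box C/D snoRNA genes with at least 1 private 31-mer and with none, split by UMIs in some barcode (green) or 0 in every barcode of both libraries (grey). The split is 31 and 3 for genes with a private 31-mer and 15 and 55 for genes with none.

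The deposited STAR matrix of the same libraries held 1328 of the 1335 in situ polyadenylated nuclei and all 1123 standard nuclei. Of the 104 members, 103 were at 0 in every STAR barcode. Snord104, a 28S guide, held 570 STAR UMIs against 30 kallisto UMIs in the same in situ polyadenylated nuclei, a ratio of 19.0, and 9 STAR against 2 kallisto UMIs in standard nuclei. The median STAR to kallisto ratio of 4815 genes with at least 20 kallisto UMIs was 4.39, and that of U8 and U13 together was 14.3.

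Among those 4815 genes, 2.12% were at 0 in STAR, against 17 of the 18 members that reached 20 kallisto UMIs. The positions differ in 1 respect: 100 of the 104 members lie within another listed gene on the same strand, and all 100 were at 0 in STAR. The other 4 were Snord104, Snord3a and a pair of entries named Snord3b-ps1, and the last 3 were at 0 too. Whether STAR UMIs of the 100 were given to the host or dropped was not tested, and the rules for counting overlapping genes are not given in the sources used here. By STAR, the Snord104 log2 ratio of in situ polyadenylated over standard nuclei was 5.10 (4.16 to 6.23), against 3.39 (1.41 to 6.50) by kallisto.

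The droplets with few UMIs were richer in box C/D snoRNAs than the nuclei. In in situ polyadenylated low-UMI barcodes they took 12072 UMIs, or 0.587% (0.577 to 0.598), 6.99-fold the share in nuclei (log2 2.81, 2.73 to 2.88). In the standard library the same sets held 40 and 11 UMIs, a log2 ratio of 1.07 (0.08 to 2.18). By depth, the in situ polyadenylated share was 0.487% at 1 to 10 UMIs, 0.597% at 11 to 100, 0.208% over 100 up to 250, 0.0930% over 750 up to 1500 and 0.0754% over 1500. Box C/D snoRNA UMIs per barcode went the other way, with a mean of 0.0525 in low-UMI barcodes and 1.24 in nuclei. Since the share in nuclei lay below that in low-UMI barcodes, the nuclear UMIs cannot be told apart from free RNA by their share, and how much of the 1659 UMIs was free RNA was not tested.

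**Figure D3:**
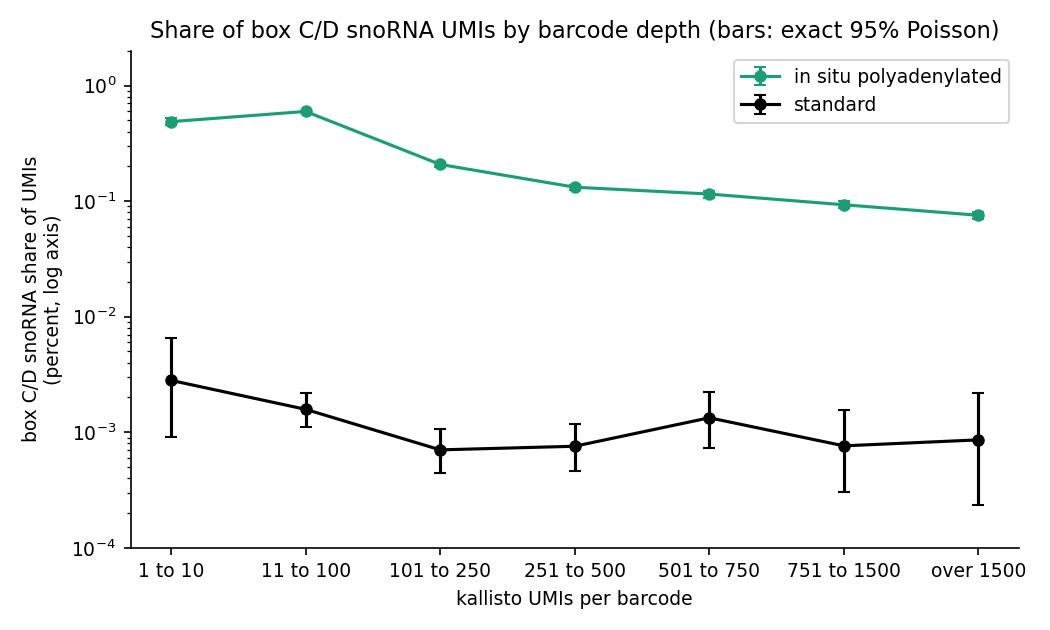
Share of UMIs in box C/D snoRNAs (percent, log axis) in barcodes grouped by their kallisto UMIs, for the in situ polyadenylated (green) and standard (black) libraries; bars are exact 95% Poisson intervals. The green line falls from 0.597% at 11 to 100 UMIs to 0.0754% over 1500, and the black line stays under 0.003%.

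Among 8018 genes with at least 20 UMIs in low-UMI barcodes and nuclei together, 18.5% were past 2-fold higher in low-UMI barcodes, with a median log2 ratio of 0.39. Of 37 members that reached that minimum, 36 were past 2-fold higher, with a median of 2.53 and quartiles of 2.26 and 2.81. Most of their UMIs, and so the minimum, came from the low-UMI set, so the count describes these 37 only. Snord15a, a 28S guide within Rps3, was highest with 12 UMIs in nuclei and 140 in low-UMI barcodes, a log2 ratio of 3.49 (2.64 to 4.47). Snord17 was next at 3.32 (3.20 to 3.45), from 572 and 5968 UMIs, and it took 49.4% of member UMIs in low-UMI barcodes. Snord11 (3.21), Snord88c (3.11, from 2 and 18 UMIs) and Snord73b (3.01) completed the 5 highest. The intervals of these 5 overlap, so they cannot be ranked. Above Snord3b-ps1, the low end held Snord55 (1.93), Snord91a (1.98), Snord90 (2.03, from 4 and 17 UMIs) and Snord49b (2.10).

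For the other members without Snord17, the share in low-UMI barcodes was 5.39-fold that in nuclei, a log2 ratio of 2.43 (2.34 to 2.53). For comparison, box H/ACA snoRNAs, which guide pseudouridylation, stood at 2.44 (2.09 to 2.80), and U8 with U13 at 2.44 (2.35 to 2.54). Cajal body RNAs (Scarna genes) stood at 2.22 (2.08 to 2.36). Without Snord17 the box C/D ratio thus lay within the first 2 of these intervals and above the third, which its own interval overlaps. Between libraries, the 38 H/ACA genes held 79 UMIs in in situ polyadenylated and 10 in standard nuclei, a log2 ratio of 2.47 (1.51 to 3.58), whose interval lies below that of box C/D snoRNAs. Cajal body RNAs stood at 5.93 (4.80 to 7.38) and U8 with U13 at 9.62 (7.14 to 14.92), and both intervals overlap that of box C/D snoRNAs, so a higher share was not seen in box C/D genes alone.

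**Figure D4:**
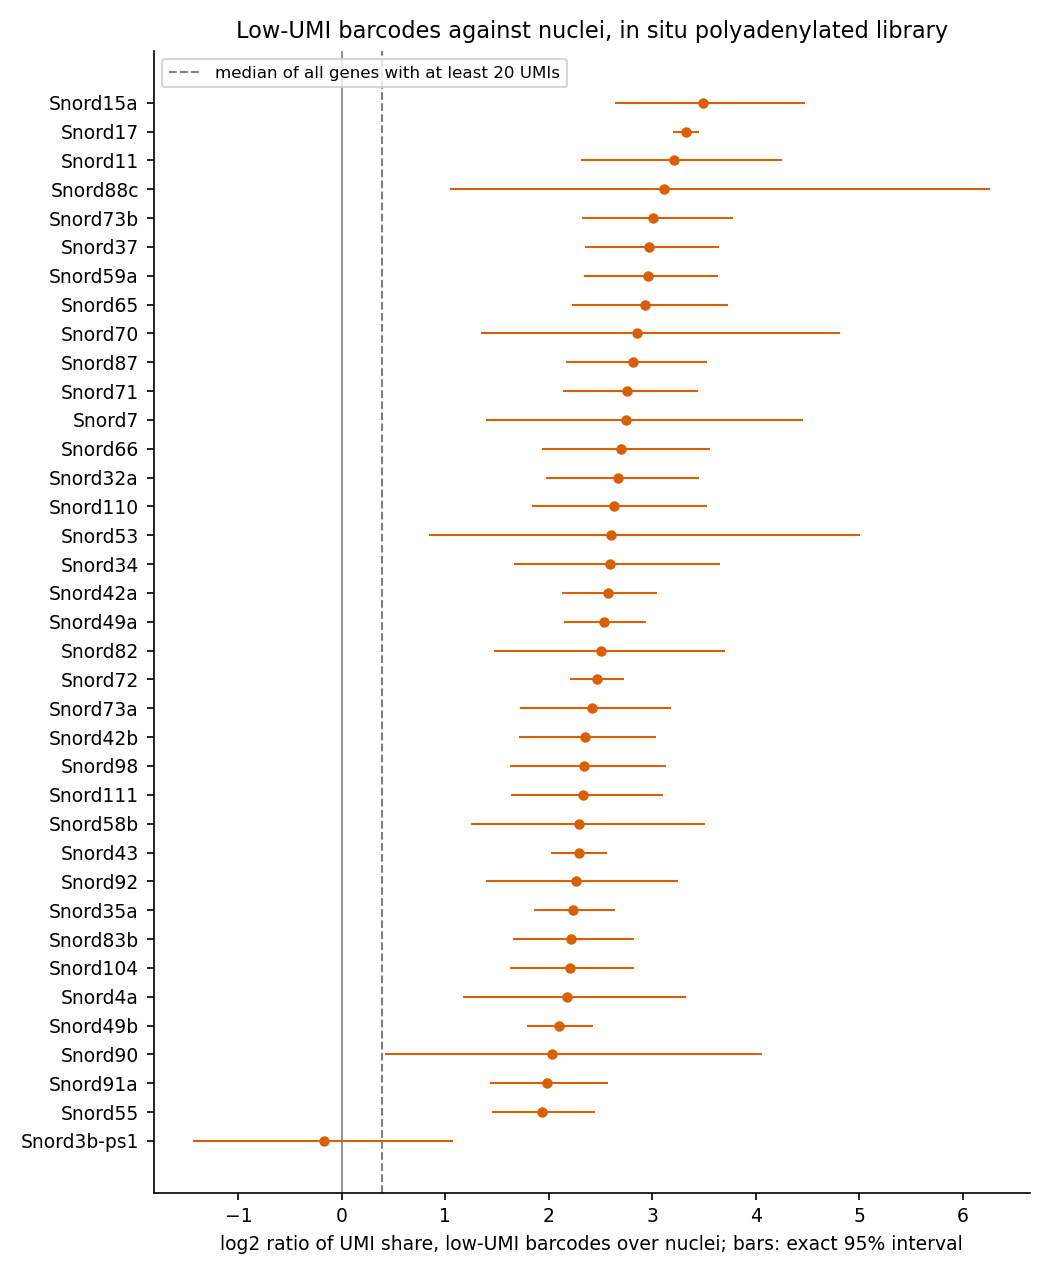
log2 ratio of UMI share in low-UMI barcodes over nuclei of the in situ polyadenylated library for the 37 members with at least 20 UMIs in both sets together; bars are exact 95% intervals, the solid line marks 0 and the dashed line the median of all genes, 0.39. Snord15a (3.49) and Snord17 (3.32) stand highest and Snord3b-ps1 (-0.17) stands alone at the bottom.

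Snord3b-ps1, an annotated U3 pseudogene copy, went against the rest. It held 13 UMIs in nuclei and 12 in low-UMI barcodes, a log2 ratio of -0.17 (-1.44 to 1.08). In M39 it has 1 private 31-mer of 186, and 185 are shared with the other entry named Snord3b-ps1, which was at 0. Whether this split affects its counts was not tested. Its 13 UMIs lay in 3 nuclei, or 4.33 UMIs per nucleus with any, against 1 to 1.35 for the other members with at least 10 UMIs. The 30 bases downstream of it hold a run of 10 adenines, and across the 104 members the median of that longest run was 2. Whether the run primed reverse transcription there was not tested.

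Per nucleus the counts were sparse. Of 1335 in situ polyadenylated nuclei, 827 (61.9%, 59.3 to 64.6) had at least 1 box C/D snoRNA UMI, against 11 of 1123 standard nuclei (0.980%, 0.490 to 1.75). After thinning each nucleus to 750 UMIs, 44.7% (42.0 to 47.4) and 0.446% (0.145 to 1.04) had one, and 3 standard nuclei fell short of that depth once their values were rounded. In low-UMI barcodes, with a median of 1 UMI each, the shares were 4.90% and 0.0177%. Snord17 was found in 424 in situ polyadenylated nuclei, Snord72 in 134 and Snord43 in 122. Distinct members numbered at least 2 in 386 nuclei and at most 10 in a single nucleus.

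Members of the same host gene did not hold equal UMIs per nt. In all, 7 hosts held at least 2 detected members, which gave 13 pairs, each written with the member of more UMIs over all barcodes first. On the scale of UMIs per nt, the interval of the ratio left out 1 in 10 of the 13 pairs in nuclei and in 13 of 13 in low-UMI barcodes. Over 37 members, UMIs in nuclei did not follow length (Spearman correlation -0.0025), so division by length is a choice of scale. Since the first member was chosen for its count, the side of 1 is not a result, while the sizes are. In Rpl23a, Snord42a stood 5.24-fold (2.62 to 11.6) above Snord4a in nuclei and 6.90-fold (5.06 to 9.60) in low-UMI barcodes. In Rpl3, Snord43 stood 3.79-fold (2.55 to 5.796) above Snord83b at its annotated 108 nt, and a length nearer to the snoRNA would raise that ratio. In 2410006H16Rik, Snord49b stood 5.67-fold (3.41 to 9.94) above Snord65 and 1.62-fold (1.17 to 2.25) above Snord49a. The pair Snord73b and Snord73a in Rps3a1 did not differ beyond counting error in nuclei, with 19 and 20 UMIs and a ratio of 0.91 (0.46 to 1.80). Snord83b, Snord35a, Snord49b, Snord49a, Snord65 and Snord4a have no private 31-mer, so their ratios may hold reads moved between a snoRNA and its host. Among the 10 pairs in nuclei, both members had private 31-mers only for Snord42a over Snord42b and Snord92 over Snord53. The ratios of those pairs in nuclei were 2.12 (1.28 to 3.62) and 3.98 (1.09 to 21.8).

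**Figure D5:**
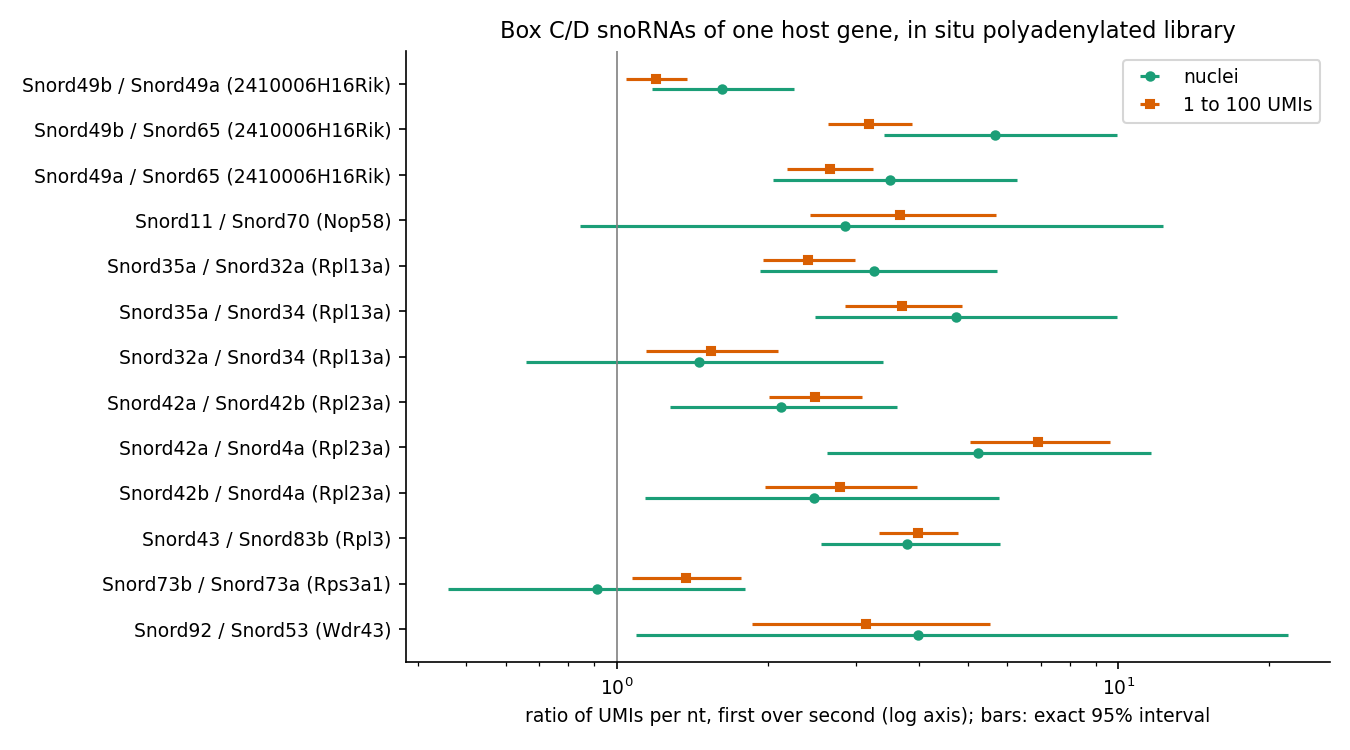
Ratio of UMIs per nt (log axis) between box C/D snoRNAs of the same host gene in the in situ polyadenylated library, with circles for nuclei, squares for low-UMI barcodes and exact 95% intervals as bars. At the annotated lengths, the largest ratios are Snord42a over Snord4a in low-UMI barcodes (6.90) and Snord49b over Snord65 in nuclei (5.67).

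Of 47 host genes that reached 20 kallisto UMIs over both libraries, 45 had a log2 ratio below 0 in in situ polyadenylated against standard nuclei. Among all genes tested the median was -1.41 and 75.7% were past 2-fold lower, so the count alone does not set hosts apart. The other 2 hosts, named after their values were seen, were 1110038B12Rik, with 201 against 91 UMIs (log2 0.63, 0.27 to 1.00), and Snhg1, with 212 against 129 (log2 0.20, -0.12 to 0.53). By STAR, 1110038B12Rik stood at 1.37 (1.22 to 1.52) and Snhg1, with 314 against 690 UMIs, at -2.02 (-2.22 to -1.83). The sign for Snhg1 thus differed between the matrices. Snx5, the host of Snord17, held 85 against 137 UMIs, a log2 ratio of -1.20 (-1.61 to -0.80), while Snord17 held 572 against 0. Rpl37, the host of Snord72, held 36 against 87 UMIs (log2 -1.79, -2.39 to -1.21). The median log2 ratio was -1.37 over 26 hosts of members with UMIs and -0.98 over 21 hosts of members at 0 in nuclei, and the median of 2117 protein-coding genes with 50 UMIs or more in both of the libraries was -1.19. By STAR, the medians of the 2 host sets were -1.78 and -1.61, and that of 7752 protein-coding genes was -1.92.

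The proteins that bind or assemble box C/D snoRNAs were also measured. Of 13 genes, 12 reached 20 UMIs, of which 0 were past 2-fold higher and 6 past 2-fold lower, with a median log2 ratio of -1.06. Nop56 and Nop58, core proteins that also host snoRNAs, held 224 against 313 and 183 against 281 UMIs. Fbl, the methyltransferase fibrillarin, held 12 against 27 UMIs. Across all genes tested, 75.7% were past 2-fold lower. Whether loss of longer transcripts had a part in the lower shares of these genes and of the hosts was not tested.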

How the data were processed

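Single-nucleus libraries of C2C12 nuclei were analysed, 1 per group, named by the labels. The authors trimmed reads with cutadapt 3.4 and made the deposited kallisto matrices with kallisto 0.48.0 and bustools 0.41.0, whose values are estimated counts of UMIs for each gene and barcode (1.10% and 2.65% of entries not whole), and the deposited STAR matrices with STAR 2.7.10a, which hold whole-number UMI counts, both unnormalized and on GRCm39 with GENCODE M28. The rules by which STAR counted overlapping genes and chose barcodes are not given in the sources used here. The kallisto libraries held 6761140 and 10593453 UMIs, the STAR matrices 20244284 and 20355795.

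Sums per gene were rounded. Ratios of UMI shares carry exact conditional Poisson intervals and shares exact (Clopper-Pearson) intervals, at 95%, covering counting error only. Zeros took a floor of 3 UMIs per set of barcodes, and no ratio was given with both at or under it. Genes with at least 20 UMIs in both sets together were compared, with past 2-fold as the call. Doublets were not called. Places and 31-mers came from GENCODE M39 of the same build, in which 54749 of 55414 genes matched. Named members had at least 10 UMIs in in situ polyadenylated or 1 in standard nuclei, or were among the 5 highest or lowest by the low-UMI to nuclei or STAR to kallisto ratio, or imprinted. Roles were assigned from textbook knowledge. The members and lists were chosen with earlier results of these data known. Code was tested on simulated data. The sequence and host gene of 1 member are not reported here. Python 3.11.15, numpy 2.4.6 and scipy 1.17.1 were used. Alternatives were other UMI minima, ranges, folds and denominators, the STAR matrix, and leaving out the deepest nuclei or Snord17.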

Additional observations from a re-analysis of the deposited data

Results flagged for a closer look

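Barcodes of over 100 and up to 750 UMIs belong to neither set compared above, and box C/D snoRNAs appeared there as well. In 9343 in situ polyadenylated barcodes they took 4092 UMIs over 44 members, a share of 0.150% (0.145 to 0.154), against 56 UMIs in 28856 standard barcodes, 0.000822% (0.000621 to 0.00107). Snord104 held 1075 STAR UMIs over all 3791 in situ polyadenylated STAR barcodes, against 47 over 8474 standard ones, and 570 and 9 of these lay in the nuclei compared above.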

How the results depend on the processing

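No paired analysis was possible because there is just 1 library in each group. The box C/D log2 ratio between libraries, 6.72, kept its direction under every alternative run: it was 5.10 with the STAR matrix, which is Snord104 alone, 7.18 without rRNA and rRNA 31-mer genes in the denominator, and 8.04 without rRNA-like genes in the denominator (Mir6236, Lars2 and ENSMUSG00002075551 among them, chosen after seeing the data). The low-UMI to nuclei log2 ratio, 2.81, also stayed above 0: 2.67 and 2.96 with minima of 500 and 1500 UMIs, 3.04 without rRNA and genes with an rRNA 31-mer in the denominator and 2.46 without the rRNA-like genes added later, 2.43 without Snord17, 2.54 at 1 to 10 UMIs and 0.95 over 100 up to 500. Members past 2-fold higher there numbered 16 over 100 up to 500 UMIs, against 36.

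Counts of members moved more. Detected members fell from 44 to 1 with STAR, and in standard nuclei from 7 to 4 over 1500 UMIs, to 1 at 3 UMIs and to 1 with STAR. Members past 2-fold higher in in situ polyadenylated nuclei, 18, numbered 7 over 1500 UMIs, 33 at a minimum of 1 UMI per gene, 6 at 50 and 1 with STAR; fewer nuclei or genes enter by construction. Over 1500 UMIs the lower bounds of Snord11, Snord110 and Snord66 became -0.11, where a bound gives no direction. The STAR to kallisto ratio of the total, 0.344, was 0.525 without Snord17. Of 50 alternative values for the main results, 31 stayed within counting error or 1.5 times the count. Of the ratios of single members, 11 stayed, 41 moved and 3 became negative. Many of these are bounds that scale with the UMIs counted: that of Snord17, 7.06, was 8.05 over 500 UMIs and 5.35 over 1500. With 1 library per group, spread between cultures is unknown, and members under about 10 UMIs cannot be ranked at this depth.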
